A study of Homo sapiens with 56 samples.

Results

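KG-1 cells that received only the vehicle were compared after 12 h and after 3 h, so the values describe what changed in culture without any inhibitor. KG-1 is an established human acute myeloid leukaemia line that grows in suspension and carries the progenitor antigen CD34. The series tested the RNA polymerase I inhibitors PMR-116 and CX-5461 in KG-1 and in Mv4;11, another established acute myeloid leukaemia line, and each compound had its own vehicle libraries. Here 16 of the 56 libraries entered the comparison, all KG-1 and all vehicle. They were 4 from the CX-5461 set (the CX set) and 4 from the PMR-116 set (the PMR set) at each time. No library with an inhibitor was used.

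All 16 libraries shared the same line, the same medium and the same vehicle. The medium was RPMI 1640 with fetal bovine serum, glutamine, penicillin and streptomycin. The vehicle was a buffer of citric acid and sodium dihydrogen phosphate. Messenger RNA was sequenced after poly-A selection with a stranded Illumina kit. The labels number the libraries of a group from 1 to 4 and do not say whether the numbers stand for separate cultures, so p-values measure only the spread between these libraries, which may be technical. Time in the vehicle, age of the culture, use of the medium and hour of harvest cannot be told apart, and whether the medium was exchanged is not given in the sources used here.

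Leukaemia cells in suspension take amino acids, glucose, oxygen and lipids from a fixed volume of medium. When amino acids run short, the kinase GCN2 raises translation of the transcription factor ATF4, which switches on genes of amino acid synthesis, transport and tRNA charging. HIF-1 does the same for genes of glucose uptake under low oxygen, and SREBP-2 for cholesterol synthesis when sterols are low. MYC drives the factors that build ribosomes in growing cells.

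The libraries held between 41699823 and 66316182 estimated counts, and log2 CPM (CPM are counts scaled to a common library size) correlated at 0.995 to 0.998 within a group. The first principal component, with 19.3% of the variance, placed all 3 h libraries from -31.82 to -8.378 and all 12 h libraries from 2.638 to 33.82. All 8 KG-1 identity markers were expressed, CD34 at 2021 to 2366 CPM at 3 h. Of 17 erythroid and megakaryocyte markers 14 lay under 1 CPM in all 16 libraries. So did 11 of 14 fibroblast, endothelial and epithelial markers and 5 of 14 lymphocyte markers. The summed level of the lymphocyte markers was 326 to 358 CPM at 3 h and 317 to 363 CPM at 12 h. It was 531 to 594 CPM and 550 to 658 CPM for the erythroid and megakaryocyte markers. Of these 17 markers 6 were at 0 in all 16 libraries, HBB and PF4 among them. Nearly all of that sum came from the few members not under 1 CPM, EPOR among them. The summed level was 4.15 to 5.42 CPM and 3.53 to 4.57 CPM for the fibroblast, endothelial and epithelial markers, with EPCAM and LUM at 0. The summed level of 9 features of RNA quality differed with time, at 3441 to 4368 CPM at 3 h and 4703 to 6802 CPM at 12 h, and 3 of them were called higher and 3 lower. Mitochondrial 16S rRNA, MT-RNR2, made up most of it, at 2917, 3491 and 3792 CPM (lowest, median and highest of 8 libraries) at 3 h and 4174, 5061 and 6122 CPM at 12 h. The part of this shift in the results below was not tested.

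The libraries numbered 1 stood apart from the others of their time in a set of genes that the results turn on, in the same direction at 3 h and 12 h. At 3 h ASS1 was at 13.3 and 12.4 CPM in them and at 36.4 to 54.9 CPM in the other 6. ASNS was at 27 and 23.2 CPM against 59.0 to 99.7 CPM, HSPA5 at 503 and 510 CPM against 324 to 387 CPM, and CEBPA at 69.1 and 68.9 CPM against 40.8 to 47.1 CPM. At 12 h ASS1 was at 110 and 138 CPM in the libraries numbered 1 and at 180 to 226 CPM in the other 6. ASNS was at 134 and 143 CPM against 148 to 185 CPM, HSPA5 at 300 and 285 CPM against 215 to 245 CPM, and CEBPA at 37.8 and 38.2 CPM against 25 to 35.7 CPM. Many results that rest on such genes are therefore also given without the 4 libraries numbered 1, an alternative chosen after seeing the data. A value given alone is not thereby free of those libraries.

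Of 17237 genes tested, 6258 (36.3%) differed between 12 h and 3 h at an adjusted p under 0.05 (edgeR's quasi-likelihood test, Benjamini-Hochberg adjustment). At 12 h 3049 genes (17.7%) were higher and 3209 (18.6%) were lower. Without the libraries numbered 1, 5851 genes were called, 2827 higher and 3024 lower. The shifts were mostly small, with a median size of 0.26 on the log2 scale among called genes. Only 164 genes (0.951%) were called and changed at least 2-fold, 115 up and 49 down. In 1660 genes (9.63%) all 8 libraries of a time lay above all 8 of the other, with 734 higher at 12 h and 926 lower. Bulk RNA cannot tell fewer cells of a type from less RNA per cell, and CPM are shares of the messenger RNA of a library.

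Among protein-coding genes with at least 5 CPM at the higher time and no overlap between the 8 libraries of each time, the largest rise was in ASS1, argininosuccinate synthase, which makes the precursor of arginine. ASS1 was at 12.4, 40.8 and 54.9 CPM at 3 h (lowest, median and highest of 8 libraries, the order used throughout) and at 110, 205 and 226 CPM at 12 h. Every 12 h library lay above every 3 h library. The log2 fold change was 2.36 ± 0.26 (SE, adjusted p = 4.51e-06), and 2.23 without the libraries numbered 1. The others among the 15 largest separated rises held genes described below with the amino acid response (STC2, PHGDH, ASNS, DDIT4, CTH) and ADM of the hypoxia list. CTSG, the neutrophil protease cathepsin G, rose by 1.17 ± 0.16, and by 1.00 without the libraries numbered 1. ANXA3 rose by 1.71 ± 0.20 and the calcium-binding protein gene S100P by 1.59 ± 0.17. S100P was at 10.2, 16.1 and 25.2 CPM at 3 h and at 38.8, 47.8 and 69.5 CPM at 12 h. UNC5C, a netrin receptor gene, rose by 1.12 ± 0.07, SPNS3 by 1.25 ± 0.14, TM6SF1 by 1.43 ± 0.17, AARD by 1.60 ± 0.20 and STAMBPL1 by 1.19 ± 0.17.

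The largest separated falls were in CXCR3, a chemokine receptor gene, at -0.99 ± 0.10, and ATF5, a transcription factor gene, at -0.97 ± 0.10. CXCR3 was at 12.2, 13.4 and 17.3 CPM at 3 h and at 5.39, 7.12 and 8.3 CPM at 12 h. SRSF5, a splicing factor gene, stood at 232, 270 and 284 CPM at 3 h and at 139, 146 and 173 CPM at 12 h. It did not overlap between the times and had a log2 fold change of -0.83 ± 0.05 (adjusted p = 6.76e-09). RBM12, an RNA-binding protein gene, fell by 0.72 ± 0.05, with 152, 166 and 182 CPM at 3 h and 89.8, 101 and 112 CPM at 12 h. CEBPA, the transcription factor gene of granulocyte differentiation, fell by 0.70 ± 0.13, and by 0.61 without the libraries numbered 1. The rest of the 15 were HMGCS1, HSPA5 and TFRC, described below, SNAI3 (-0.91 ± 0.14), LANCL2 (-0.75 ± 0.07), ZNF35 (-0.75 ± 0.11), NT5DC2 (-0.71 ± 0.07), TUBB2A (-0.67 ± 0.07), RPP14 (-0.66 ± 0.07) and MYORG (-0.64 ± 0.10). Without the libraries numbered 1 the value of SNAI3 was -0.74.

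**Figure D1:**
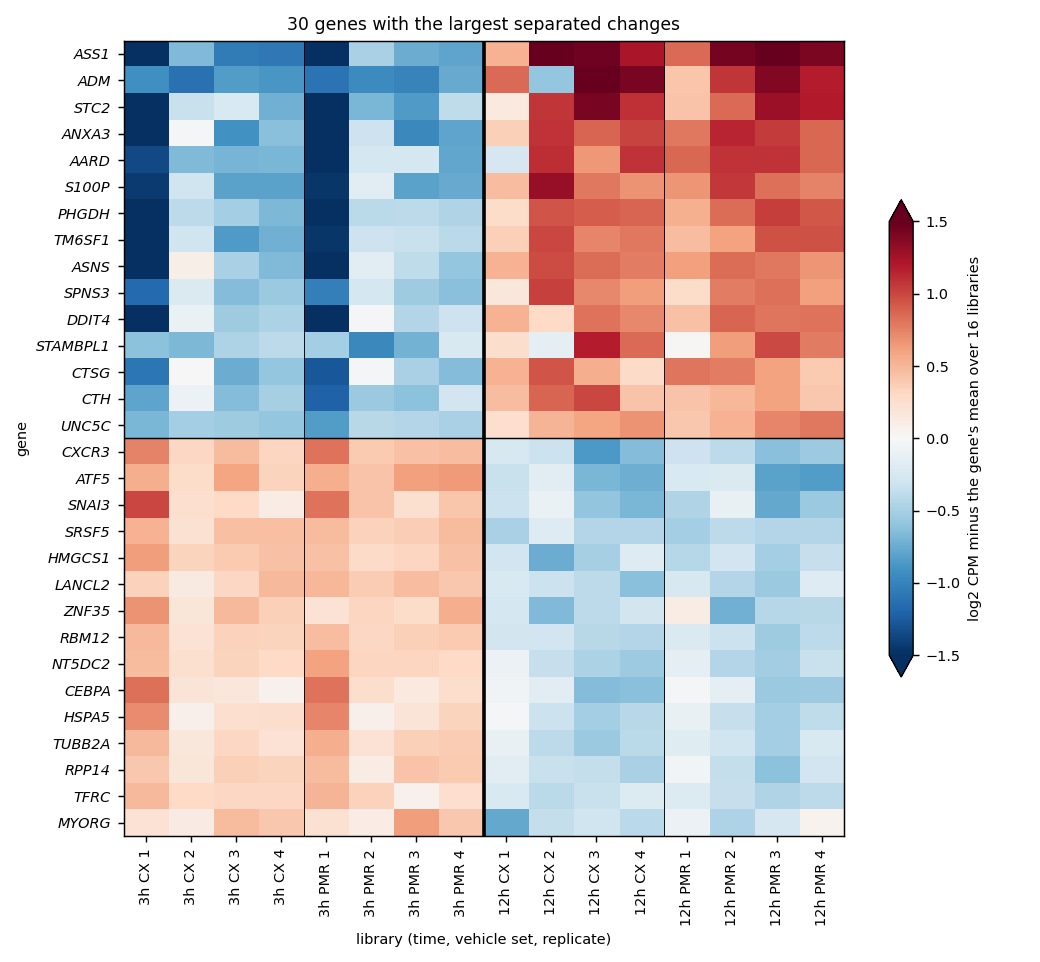
Heat map of log2 CPM minus each gene's mean over the 16 KG-1 vehicle libraries (colour scale ends at 1.5 either way) for the 30 genes with the largest separated changes, rises above the line and falls below it. Columns are libraries by time, vehicle set and replicate; every rise is bluer at 3 h and redder at 12 h, and both 3 h libraries numbered 1 are bluest for ASS1, PHGDH and ASNS.

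Genes of the amino acid response rose together. Of 48 tested members of the ATF4 and amino acid response list (50 in all), 32 rose and 2 fell against a background of 17.7% and 18.6% of all genes. Their median log2 fold change was 0.28, and that of all tested genes was 0.01. Without the libraries numbered 1, 27 rose and 3 fell, with a median of 0.18.

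Promoter sequence around the composite site bound by ATF4 with C/EBP proteins is shown for 4 of the members that rose, chosen because they rose and carry a match upstream of the start. Windows came from RefSeq (GRCh38.p14), each holding up to 26 bases on either side of the match, upstream of the annotated start, 5′ to 3′ on the gene's strand. Capitals mark the match to TGATGNAA or its reverse complement.
ASNS, chr7:97872443-97872502, minus strand: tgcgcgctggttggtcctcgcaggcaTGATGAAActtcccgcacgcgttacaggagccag
AARS1, chr16:70289660-70289719, minus strand: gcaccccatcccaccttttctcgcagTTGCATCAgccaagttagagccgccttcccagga
BCAT1, chr12:24949116-24949175, minus strand: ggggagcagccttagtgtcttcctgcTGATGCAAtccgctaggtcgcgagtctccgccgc
IARS1, chr9:92293698-92293736, minus strand: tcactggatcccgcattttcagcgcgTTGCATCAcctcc
TGATGNAA, searched on both strands from 250 bases before to 50 bases after the start, was present in 11 of 39 list members with a window, and in 3.67% of 27305 promoters. It was present in 5 of the 26 risen members with a window, a smaller share than in the list as a whole. Of 11137 tested genes with a window 1.76% carried it. A match is a description of letters, not evidence of binding.

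ASNS, asparagine synthetase, was at 23.2, 64.6 and 99.7 CPM at 3 h and at 134, 161 and 185 CPM at 12 h. Its groups did not overlap, and its log2 fold change was 1.36 ± 0.22 (adjusted p = 0.000113), or 1.16 without the libraries numbered 1. The serine pathway enzymes moved the same way to unequal extents. PHGDH, which opens serine synthesis from glucose, was at 42.4, 104 and 111 CPM at 3 h and at 176, 269 and 297 CPM at 12 h (log2 change 1.51 ± 0.19, adjusted p = 1.37e-05). PSAT1, the next enzyme, rose by 0.57 ± 0.15 and PSPH, the last, by 0.45 ± 0.10. Without the libraries numbered 1 the values were 1.39 for PHGDH, 0.34 for PSAT1 and 0.29 for PSPH. The mitochondrial folate enzymes SHMT2 and MTHFD2 rose by 0.35 ± 0.07 and 0.31 ± 0.07, MTHFD2 with overlapping groups and 0.20 without the libraries numbered 1. Outside these 5, the list of 20 tested serine and one-carbon genes held 1 further rise and 5 falls, TYMS, FPGS, SLC19A1 and SLC25A32 among the latter.

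CTH, which makes cysteine by transsulfuration, rose from 1.69 to 3.71 CPM across the 3 h libraries to 5.2 to 7.84 CPM at 12 h (log2 change 1.16 ± 0.13). PCK2, the mitochondrial phosphoenolpyruvate carboxykinase, was at 115, 172 and 224 CPM at 3 h and at 285, 301 and 334 CPM at 12 h (log2 change 0.83 ± 0.11). Among tRNA synthetases, WARS1 had the largest change, from 264, 428 and 566 CPM to 720, 765 and 817 CPM (0.86 ± 0.13, adjusted p = 5.44e-05). Without the libraries numbered 1 PCK2 changed by 0.70 and WARS1 by 0.69. SARS1 rose by 0.47 ± 0.06, AARS1 by 0.46 ± 0.07 and IARS1 by 0.19 ± 0.05. The branched-chain aminotransferase BCAT1 rose by 0.28 ± 0.05, with 126 to 168 CPM at 3 h and 171 to 200 CPM at 12 h. IARS1 and BCAT1 carry the site shown above and rose less than ASNS and AARS1, which carry it too.

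Signalling members also rose. DDIT4, an inhibitor of mTORC1, was at 67.6, 159 and 215 CPM at 3 h and at 270, 371 and 400 CPM at 12 h. Its log2 change was 1.22 ± 0.20, or 1.04 without the libraries numbered 1. STC2, a secreted glycoprotein gene, was at 2.3, 6.45 and 8.98 CPM and then at 11.6, 22.3 and 28.1 CPM, a rise that stayed at 1.68 on the log2 scale without the libraries numbered 1. DDIT3, the stress factor CHOP, rose by 0.70 ± 0.17 and the pseudokinase gene TRIB3 by 0.36 ± 0.10, both with overlapping groups. ATF4 mRNA itself was at 587, 719 and 799 CPM at 3 h and at 630, 717 and 794 CPM at 12 h, and its groups overlapped almost fully (log2 fold change 0.02 ± 0.06, adjusted p = 0.831). CHAC1, a glutathione-degrading enzyme and ATF4 target, stood at -0.09 ± 0.17 on the log2 scale (adjusted p = 0.731), and the cystine transporter SLC7A11 at 0.37 ± 0.16 (adjusted p = 0.0713). Without the libraries numbered 1 the values were -0.25 and 0.17. CHAC1 went from 64 and 62.1 CPM to 93.4 and 104 CPM in the libraries numbered 1. In those numbered 2 it went from 135 and 143 CPM to 154 and 131 CPM. In those numbered 3 and 4 it went from 114 to 131 CPM at 3 h to 83.4 to 96.8 CPM at 12 h. The 2 members that fell were ATF5, from 17.9, 21.6 and 23.1 CPM to 8.29, 10.5 and 13.3 CPM, and ALDH18A1, an enzyme of proline synthesis, by 0.16 ± 0.04.

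Genes induced by low oxygen formed the next group. Of 22 tested hypoxia response genes (26 in all), 16 rose and none fell, with a median log2 fold change of 0.39. Without the libraries numbered 1, 17 rose and none fell. ADM, the vasodilator peptide adrenomedullin, was at 4.16, 4.74 and 5.35 CPM at 3 h and at 6.09, 19.9 and 32 CPM at 12 h (log2 change 2.03 ± 0.23). Its 12 h libraries were spread widely, with the lowest just above the narrow 3 h range. That library, replicate 2 of the CX set, was also lowest at 12 h for KDM3A and SLC2A1, and replicate 1 of the PMR set was lowest for SLC2A3, INSIG2, VEGFA, HK2 and PFKFB4. SLC2A3, a glucose transporter of high affinity, was at 49.4, 59.3 and 61.1 CPM and then at 77.8, 127 and 164 CPM (log2 change 1.04 ± 0.12). SLC2A1, the widespread glucose transporter, rose by 0.56 ± 0.11 and the histone demethylase gene KDM3A by 0.64 ± 0.12, both with overlapping groups. INSIG2, which holds SREBP precursors in the endoplasmic reticulum, rose by 0.84 ± 0.14, and VEGFA, the angiogenic growth factor, by 0.45 ± 0.07. The mRNA of HIF1A, the regulated subunit of HIF-1, had a log2 fold change of -0.13 ± 0.06 (adjusted p = 0.0729).

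Glycolysis genes did not move as a block: of 25, 8 rose and 5 fell, and the median was 0.00. Without replicate 2 of the 12 h PMR set, 7 rose and 9 fell. Both glucose transporter genes of the list, SLC2A3 and SLC2A1, rose. HK2, hexokinase 2, was at 201, 206 and 215 CPM at 3 h and at 264, 388 and 436 CPM at 12 h (log2 fold change 0.79 ± 0.09, adjusted p = 6.95e-06). PFKFB4, which sets the level of fructose 2,6-bisphosphate, was at 23.4, 29.6 and 30.4 CPM and then at 10.6, 69.6 and 109 CPM. Its 12 h group ran on both sides of the 3 h group, and its log2 fold change was 1.16 ± 0.31. Among the fallers were the enzyme genes ALDOA, TPI1 and PGAM1, and SLC16A1, a lactate transporter, which fell by 0.33 ± 0.05. In the glucose-sensing and insulin-FOXO list, 12 of 21 tested genes rose and 2 fell, with a median of 0.25. YPEL3, a growth-suppressive gene, rose by 0.80 ± 0.10, CCNG2, an unconventional cyclin and FOXO target, by 0.65 ± 0.11, and TXNIP, a brake on glucose uptake, by 0.39 ± 0.12. IRS2, the insulin receptor substrate, was at 30.6, 32.7 and 34.7 CPM at 3 h and at 44.7, 45.4 and 49.5 CPM at 12 h, a rise of 0.51 ± 0.04.

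Cholesterol synthesis went the other way. Of 26 tested genes (27 in all), none rose and 18 fell, with a median of -0.22. Without the libraries numbered 1, 1 rose and 14 fell. HMGCS1, which makes HMG-CoA, was at 165, 181 and 209 CPM at 3 h and at 81.1, 104 and 118 CPM at 12 h (log2 change -0.82 ± 0.07, adjusted p = 2.59e-07). NSDHL and DHCR7, late enzymes of the sterol pathway, fell by 0.50 ± 0.06 and 0.45 ± 0.04, both without overlap of the groups. DHCR7 was at 150, 156 and 168 CPM and then at 105, 116 and 125 CPM. SREBF2, the gene of SREBP-2, was at 473, 484 and 576 CPM and at 495, 514 and 541 CPM (log2 fold change 0.04 ± 0.04, adjusted p = 0.471). Of 15 tested fatty acid synthesis genes 6 fell and none rose, FASN by 0.29 ± 0.04 and the desaturase gene SCD by 0.23 ± 0.04. Of 7 tested LXR target genes of cholesterol efflux, LPCAT3 was called lower and no other was called. The motif TCACNCCA, the classic sterol response element, was present in the promoter windows of 3 of 20 cholesterol genes. It was present in 0 of the 13 fallen genes with a window, so no such sequence is shown. Of all promoters 3.93% carried it, and of 11137 tested genes with a window 3.42%.

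**Figure D2:**
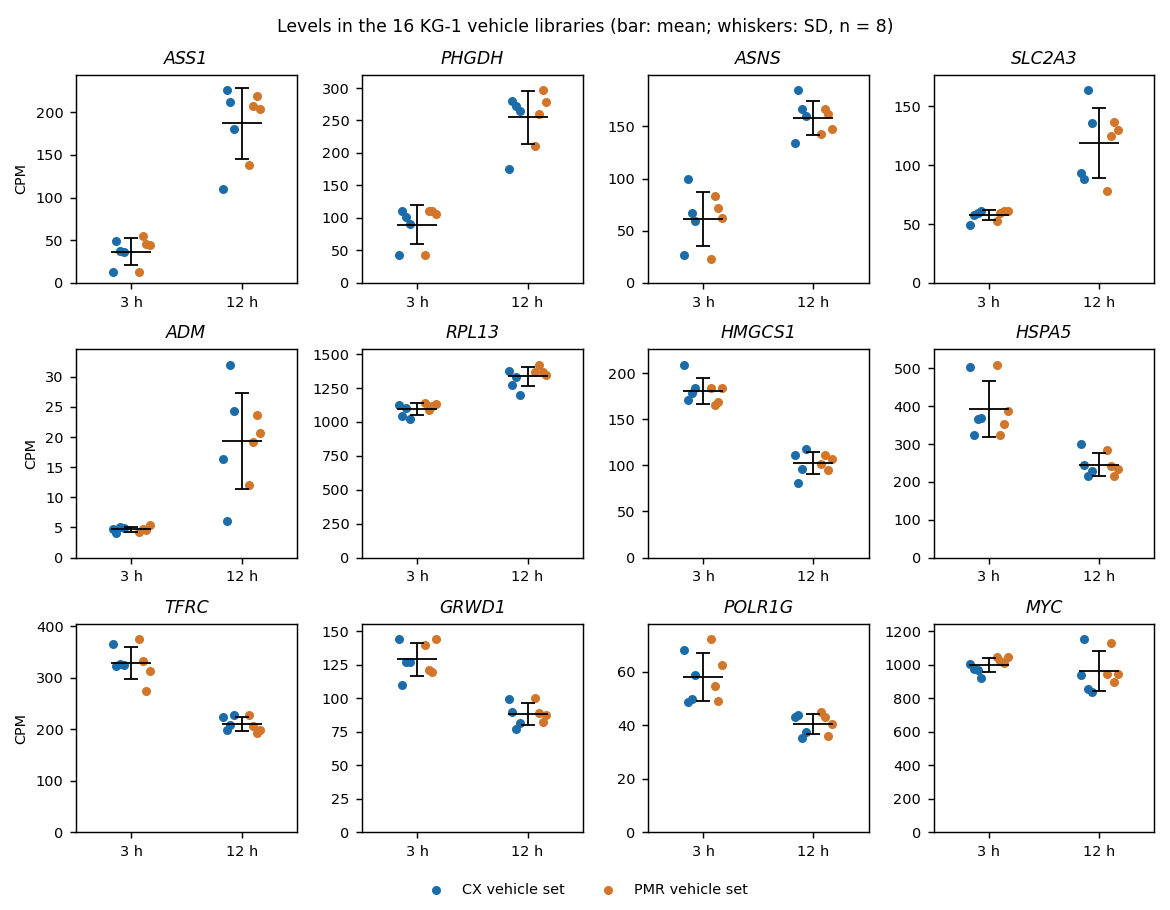
CPM of 12 genes in each of the 16 KG-1 vehicle libraries at 3 h and 12 h, coloured by vehicle set, with the mean (bar) and SD (whiskers, n = 8). ASS1, PHGDH, ASNS, SLC2A3, ADM and RPL13 are higher at 12 h and HMGCS1, HSPA5, TFRC, GRWD1 and POLR1G lower without overlap, while MYC overlaps; the libraries of both sets mix within each time.

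Genes of the unfolded protein response were called lower more often than higher, and heat shock genes were called in both directions. In the unfolded protein response list, 18 of 36 genes fell and 3 rose, with a median of -0.13. HSPA5, the luminal chaperone BiP, was at 324, 367 and 510 CPM at 3 h and at 215, 238 and 300 CPM at 12 h (log2 change -0.67 ± 0.10), with -0.62 without the libraries numbered 1. CALR, the calcium-binding chaperone calreticulin, fell by 0.41 ± 0.07, and SDF2L1, a partner of BiP, by 0.52 ± 0.14. XBP1, the transcription factor gene spliced by IRE1, was called higher at 0.13 ± 0.05 and lost its call under 11 of 23 alternatives other than the 1.2-fold test, 9 of them leaving out a single library. Over these 23 its value ran from 0.08, without the libraries numbered 1, to 0.17. Of 27 tested heat shock genes 11 fell, 6 rose and 10 were not called, with a median of -0.10. HSP90AA1, the inducible cytosolic HSP90, was at 1453, 1641 and 1803 CPM and then at 950, 1052 and 1347 CPM (log2 change -0.56 ± 0.07). HSPE1 and HSPD1, the partners of the mitochondrial chaperonin, fell by 0.63 ± 0.08 and 0.39 ± 0.07, and HSPA4 by 0.44 ± 0.07. The collagen chaperone gene SERPINH1 rose by 0.46 ± 0.04, so members of the list did not move together. The count of risen heat shock genes dropped to 3 when replicate 4 of the 12 h PMR set or replicate 3 of the 3 h CX set was left out.

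Antioxidant and iron genes were lower too. Of 25 tested NRF2 target genes 15 fell and 2 rose, with a median of -0.14. NQO1, a quinone reductase, fell by 0.39 ± 0.06 and TXNRD1, thioredoxin reductase, by 0.22 ± 0.05. In the iron list 9 of 15 tested genes fell and 1 rose. TFRC, the transferrin receptor through which cells take up iron, was at 274, 326 and 374 CPM at 3 h and at 192, 207 and 227 CPM at 12 h (log2 change -0.65 ± 0.05, adjusted p = 3.92e-07). SLC40A1, the iron exporter, and FTL, a storage subunit, were called lower as well, and SLC39A14 was the gene that rose.

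The machinery that makes ribosomes was lower at 12 h, and the genes of the ribosome's own proteins were slightly higher. Of 125 ribosome biogenesis factors 95 fell and 3 rose, with a median log2 fold change of -0.22, against 18.6% of all genes lower. Of 51 tested MYC target genes 40 fell and 3 rose, with a median of -0.25, and the lists share members such as GRWD1 and NIP7. Of 23 tested genes of the RNA polymerase I machinery (26 in all) 18 fell and none rose, and 14 fell without the libraries numbered 1.

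E-box sequence, a site bound by MYC with MAX, is shown for 4 biogenesis genes. They were chosen because they fell and carry a match upstream of the start. Windows are from the same RefSeq table and build, and capitals mark CACGTG.
PWP1, chr12:107685638-107685695, plus strand: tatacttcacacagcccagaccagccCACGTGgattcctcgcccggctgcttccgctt
NOP10, chr15:34343275-34343332, minus strand: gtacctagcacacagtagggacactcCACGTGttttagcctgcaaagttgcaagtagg
UTP14A, chrX:129905914-129905954, plus strand: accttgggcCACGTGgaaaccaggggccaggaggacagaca
UTP20, chr12:101280069-101280104, plus strand: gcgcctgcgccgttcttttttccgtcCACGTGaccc
CACGTG was present in 39 of 105 biogenesis genes with a window, in 29 of the 82 fallen genes with a window, and in 7.43% of 27305 promoters. Of 11137 tested genes with a window 9.91% carried CACGTG, and its share among the fallen genes was not above that in the list. Here too a match describes letters and is not evidence of binding. PWP1 fell by 0.39 ± 0.06, the H/ACA protein gene NOP10 by 0.39 ± 0.05, and the processome genes UTP14A and UTP20 by 0.31 ± 0.06 and 0.30 ± 0.05.

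MYC mRNA was at 920, 1009 and 1049 CPM at 3 h and at 839, 942 and 1152 CPM at 12 h. Its groups overlapped, with a log2 fold change of -0.05 ± 0.06 (adjusted p = 0.49). GRWD1, a chaperone for ribosomal protein uL3 and a MYC target, was at 110, 127 and 144 CPM and then at 76.9, 88.4 and 100 CPM (log2 change -0.55 ± 0.06, adjusted p = 6.11e-06). UTP3, of the small subunit processome, fell by 0.55 ± 0.07, NIP7, of large subunit assembly, by 0.51 ± 0.06 and LTV1, of small subunit assembly, by 0.51 ± 0.06. NOP53 was an exception among biogenesis factors, at 220, 248 and 270 CPM and then at 293, 312 and 352 CPM, a rise of 0.36 ± 0.05. In the polymerase, POLR1G, a subunit particular to RNA polymerase I, was at 48.5, 56.6 and 72 CPM and then at 35.4, 41.8 and 44.8 CPM (log2 change -0.51 ± 0.08). POLR2L, a subunit shared by all nuclear RNA polymerases, fell by 0.52 ± 0.06, and the catalytic subunit gene POLR1A by 0.25 ± 0.05. UBTF, which opens ribosomal DNA chromatin, fell by 0.22 ± 0.04. The nucleolar ribosomal RNA precursor was not measured, since the kit selects polyadenylated RNA.

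Of 79 cytosolic ribosomal protein genes 48 rose and none fell, with a median of 0.10, and none passed a test against a 1.2-fold change. Without the libraries numbered 1, 36 rose and 1 fell. RPL13 was at 1022, 1110 and 1142 CPM and then at 1200, 1356 and 1422 CPM (0.28 ± 0.03), and RPL3 at 1831, 1910 and 2121 CPM and then at 2154, 2236 and 2446 CPM (0.22 ± 0.03). With library totals in place of TMM scaling 66 rose. These genes have many processed pseudogenes, and how reads were divided among copies is not given in the sources used here. Of 27 host genes of small nucleolar RNAs 11 rose and 8 fell. GAS5, a host gene whose transcript is normally decayed during translation, was at 162, 176 and 207 CPM and then at 215, 263 and 290 CPM (0.51 ± 0.06), while SNHG9, SNHG30, DANCR and SNHG12 fell most. Translation factors divided as well, with 13 of 43 higher and 14 lower. EEF2 and EEF1A1, elongation factors whose mRNAs carry the same regulatory start as ribosomal protein mRNAs, rose by 0.25 and 0.24, and the initiation scaffold EIF4G1 fell by 0.45.

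In the cell cycle lists the S phase genes fell. Of 55 tested DNA replication and G1/S genes 36 fell and 2 rose, with a median of -0.16. FEN1, the flap nuclease, was at 169, 181 and 193 CPM and then at 118, 134 and 156 CPM (-0.41 ± 0.05), and PCNA, the sliding clamp, fell by 0.36 ± 0.05. CCNE1, cyclin E, fell by 0.44 ± 0.07. G2/M and mitosis genes showed no common direction: of 61 tested, 15 rose and 13 fell, with a median of 0.04, and with library totals in place of TMM scaling 23 rose and 11 fell. HMMR, a spindle protein gene, rose by 0.54 ± 0.08 and TOP2A, topoisomerase II alpha, by 0.32 ± 0.04, whereas KIF11 and FOXM1 fell by 0.22 ± 0.05 and 0.21 ± 0.03. Of 45 tested replication-dependent histone genes 11 rose and 2 fell. Their summed level of 55.5 to 80.1 CPM over all libraries was low after poly-A selection, and near-identical copies can share reads. Of 21 nucleotide synthesis genes 11 fell and 1 rose. UMPS, which completes UMP synthesis, fell by 0.49 ± 0.13, and CAD, which begins it, rose by 0.14 ± 0.04.

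**Figure D3:**
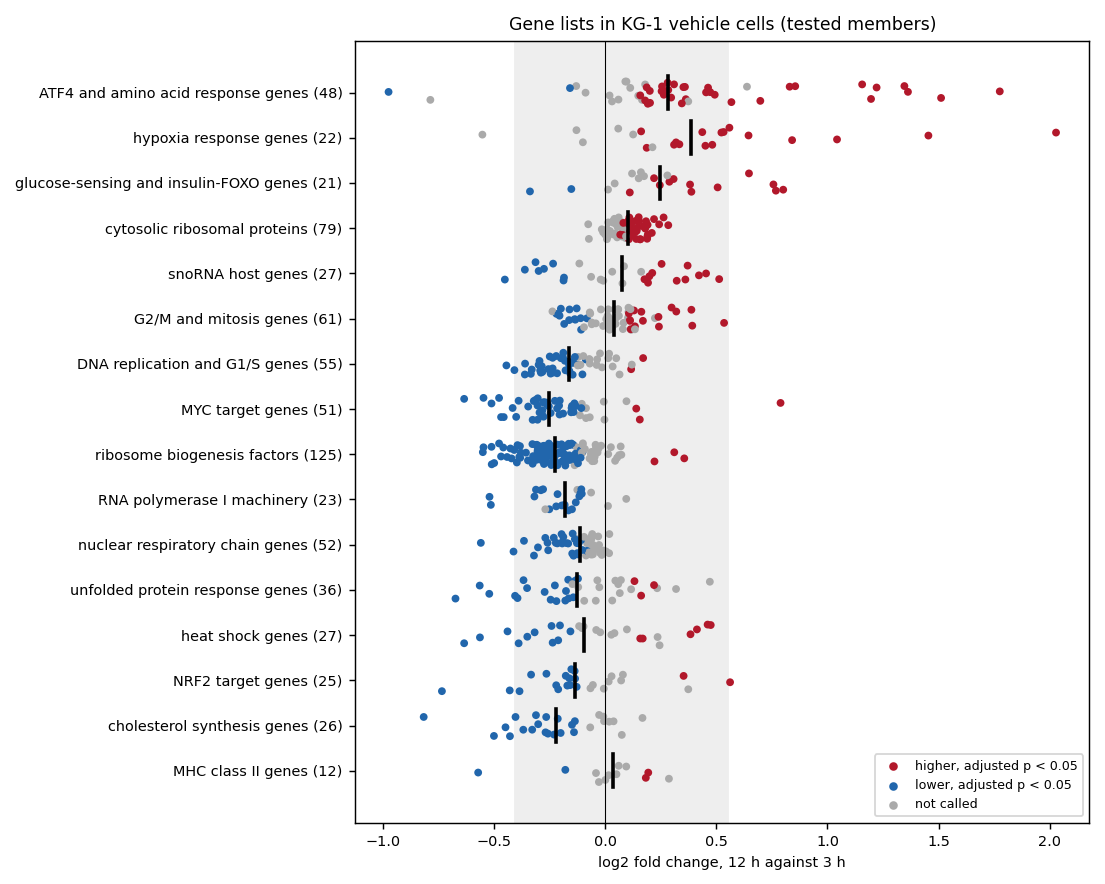
Log2 fold change (12 h against 3 h) of every tested member of 16 gene lists in KG-1 vehicle cells, with the number tested in brackets; red and blue points were called higher and lower, grey points were not called, and black bars are medians. The grey band spans the 5th to 95th percentile of all tested genes, -0.41 to 0.55; the hypoxia list has its median at 0.39 and the MYC target list at -0.25.

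Respiratory chain genes of the nucleus were lower, with 28 of 52 called lower and none higher (median -0.11). ATP5MC1, a subunit of the ATP synthase ring, was at 155, 165 and 193 CPM and then at 97, 105 and 148 CPM (log2 change -0.56 ± 0.09). Of 13 mitochondrially encoded mRNAs 6 were called lower and 1 higher, and without the libraries numbered 1, 2 were lower and none higher. Of 11 polyamine genes 6 fell and 1 rose, with ODC1, AMD1 and SRM of the synthesis pathway among the fallers.

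Genes of blood cell identity were called in both directions. Of the 8 KG-1 identity markers 2 rose and 5 fell, with a median of -0.12, and over single libraries left out 1 or 2 rose and 4 or 5 fell. CD34 was at 2021, 2127 and 2366 CPM at 3 h and at 1814, 1949 and 2062 CPM at 12 h, a fall of 0.14 ± 0.03 with overlapping groups. SPN, the surface sialoglycoprotein CD43, fell by 0.54 ± 0.06, from 479, 509 and 590 CPM to 313, 366 and 398 CPM. LMO2, a progenitor transcription cofactor, rose by 0.32 ± 0.05. Of 28 tested stem cell and leukaemia genes 8 rose and 4 fell, and of 28 tested monocyte and granulocyte genes 7 rose and 6 fell. Of all tested genes 17.7% were higher and 18.6% lower, so these counts are not read as a trait of such genes. CSF3R, the G-CSF receptor, rose by 0.51 ± 0.08, and SPI1, the myeloid factor PU.1, fell by 0.19 ± 0.06, so CSF3R and CTSG rose while CEBPA and SPI1 fell.

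Signalling lists gave smaller counts, to be set beside 17.7% higher and 18.6% lower among all tested genes. Of 46 interferon-stimulated genes 17 rose and 3 fell (median 0.08), with IRF7, DDX58 and GBP5 among the risers. In the JAK-STAT feedback list 6 of 14 rose and 1 fell, and in the circadian list 7 of 16 rose and 2 fell, DBP, NR1D2 and PER2 being among the risers. NF-kB and cytokine genes (4 of 28 higher, 9 lower), immediate-early genes (6 of 28 higher, 5 lower), MAPK feedback genes (3 of 14 higher) and p53 targets (5 of 27 higher, 9 lower) had no common direction or few calls. BCL2 family genes divided evenly, with 5 of 16 in each direction, and lysosome and autophagy genes had 9 of 37 higher and 6 lower. Cyclin-dependent kinase inhibitors and G1 cyclins had 5 of 14 higher and 2 lower, glucocorticoid and cAMP genes 2 of 13 higher and 3 lower, TGF-beta genes 1 of 13 higher and 2 lower, and adhesion genes 4 of 17 higher and 5 lower. In the MYC network, where MXI1 and MXD3 rose and MYCN and MLXIP fell, the other 7 of 11 were not called.

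The comparison was also made within each vehicle set, with no library in common. Both were contrasts in a joint fit of the vehicle groups, so the filter, the scaling and the estimate of the spread were shared. The sets may also not be independent, since the labels do not say whether same-numbered libraries came from separate cultures. In 14 of 16 libraries the best match from another group had the same number. The CX set gave 3241 calls of 17844 (18.2%), 1515 higher and 1726 lower. The PMR set gave 3701 (20.7%), 1967 higher and 1734 lower. Among the 17237 genes tested in the main comparison, 2256 were called in both sets. They were 70.0% of the 3225 CX set calls and 61.3% of the 3683 PMR set calls there. All 2256 had the same direction in both. ASS1 changed by 2.43 in the CX set and 2.30 in the PMR set, PHGDH by 1.52 and 1.51, HMGCS1 by -0.87 and -0.75, HSPA5 by -0.65 and -0.67, and GRWD1 by -0.54 and -0.53. The ATF4 list had 19 of 48 higher and 2 lower in the CX set and 22 higher and 1 lower in the PMR set. The hypoxia list had 11 of 22 higher in each set, the cholesterol list 14 and 11 of 26 lower, and the biogenesis list 77 and 72 of 125 lower. Across 17237 genes the log2 fold changes of the sets correlated at 0.477, a description across genes, which are not independent replicates.

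A test of the difference between the sets called no gene (edgeR, 0 of 17844, 669 at an unadjusted p under 0.05), and DESeq2 called 1, ANKHD1-EIF4EBP3. A comparison of PMR vehicle with CX vehicle over both times called none either (879 at an unadjusted p under 0.05), and DESeq2 called 1, RABGGTB. UMPS fell by 0.70 in the PMR set and by 0.25 in the CX set, a difference that was not called. The CX set count was 1840 without replicate 1 at 3 h and 1841 without replicate 3 at 12 h.

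**Figure D4:**
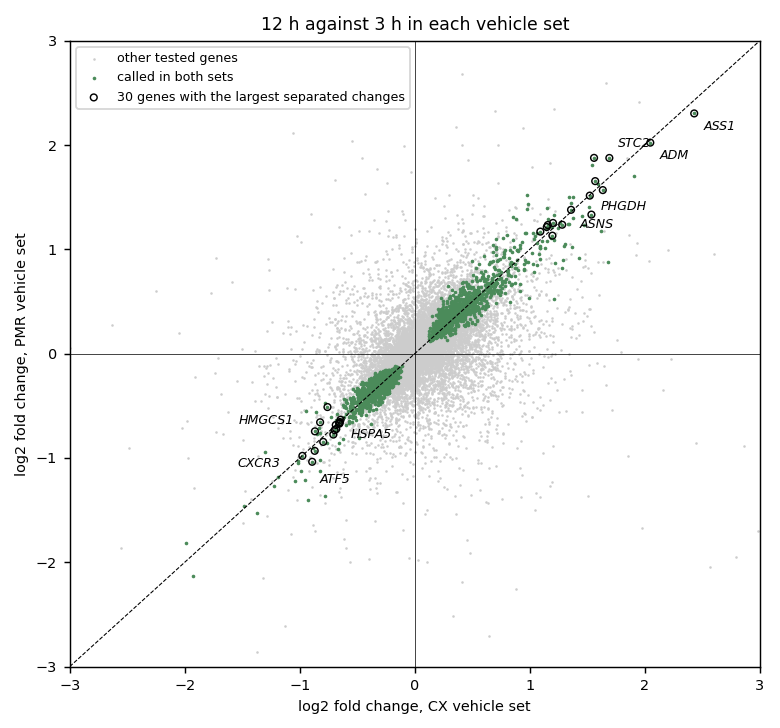
Log2 fold change (12 h against 3 h) of each tested gene in the CX vehicle set (horizontal) and the PMR vehicle set (vertical), which share no library; green points were called in both, circles are the 30 genes with the largest separated changes, and the dashed line marks equality. The 2256 genes called in both lie in the lower left and the upper right; 11 genes fall outside the plotted range.

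Mv4;11 vehicle cells offered the same comparison with 12 libraries, 3 in each set at each time, with totals of 28751951 to 41542587. All KG-1 libraries are labelled batch 2 and all Mv4;11 libraries batch 1, so line and batch cannot be told apart. In Mv4;11 2449 of 18156 genes (13.5%) were called, 1089 higher (6.0%) and 1360 lower (7.49%). Of the 5877 KG-1 calls that were also tested there, 1201 (20.4%) were called, which is 49% of the Mv4;11 calls. Of these, 1001 had the same direction in both lines and 200 the opposite. The test of the difference between lines called 2327 of 22081 genes (10.5%), 1275 more positive in KG-1 and 1052 more negative. Replicate 3 of the 12 h PMR vehicle of Mv4;11 stood apart in features of RNA quality, and list counts without it are given beside those below. The median log2 fold change of the 9 RNA quality features in Mv4;11 was 1.23 with it and 0.36 without it, and 2049 genes were called without it. In KG-1 that median was -0.29. With all libraries, 5 of the 9 features were called more negative in KG-1 and none more positive. The part of this in the line differences below was not tested.

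The amino acid response differed between the lines. In Mv4;11 3 of 48 ATF4 list members were higher and 7 lower, with a median of -0.09, and 25 members were called more positive in KG-1 and 1 more negative. Without that library these counts were 25 and 1 as well, and 3 members were called in each direction in Mv4;11. PHGDH had a log2 fold change of 0.03 in Mv4;11 (adjusted p = 0.899), a difference of 1.49 ± 0.27 between lines (adjusted p = 0.000599). For ASNS the Mv4;11 value was -0.18 (adjusted p = 0.456) and the difference 1.54 (adjusted p = 0.00239). ASS1 rose in Mv4;11 by 0.44 from 74.5, 82.3 and 94.4 CPM to 104, 116 and 121 CPM, less than in KG-1 by 1.92 (adjusted p = 0.000405). ATF5 rose in Mv4;11 by 0.67 and fell in KG-1, a difference of -1.63 (adjusted p = 4.85e-05). DDIT4 rose in both, by 1.22 in KG-1 and 1.35 in Mv4;11 (difference -0.13, adjusted p = 0.926).

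Hypoxia genes rose in both lines, with 10 of 24 higher and none lower in Mv4;11, and the line difference was called for 4 of 25 members in the positive and 1 in the negative direction. All of these counts were the same without that library. SLC2A3 rose by 1.02 in Mv4;11 and 1.04 in KG-1. INSIG2, SLC2A1 and VEGFA, which rose in KG-1, were not called in Mv4;11 (-0.10, 0.06 and 0.04). All of them were called for the line difference. Cholesterol synthesis genes went in opposite directions: in Mv4;11 8 of 26 rose and none fell (7 without that library), and 16 of 26 were called more negative in KG-1, also without it. DHCR7 had a Mv4;11 value of 0.27 (adjusted p = 0.151) and a difference of -0.71 (adjusted p = 0.000324).

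Biogenesis factors fell in both lines. In Mv4;11 53 of 125 were lower and none higher (40 without replicate 3 of the 12 h PMR vehicle), with a median of -0.14. The line difference was called for 6 of them in the positive and 13 in the negative direction, and without that library these counts were 3 and 18. Over single libraries left out the negative count ran from 3 to 26. Ribosomal protein genes had 1 of 79 higher in Mv4;11 (6 without that library), and 17 of 79 were called more positive in KG-1 (10 with 1 more negative without that library). G2/M genes fell in Mv4;11, with 26 of 62 lower and none higher (18 lower and 1 higher without that library), and 26 were called more positive in KG-1, 19 without it.

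MHC class II genes fell in Mv4;11 and had no common direction in KG-1. HLA-DRA, which encodes the shared alpha chain of HLA-DR, was at 121, 128 and 136 CPM at 3 h in KG-1 and at 124, 130 and 147 CPM at 12 h (0.06 ± 0.04, adjusted p = 0.24). In Mv4;11 it fell by 1.06 (adjusted p = 3.07e-05), a difference of 1.13 (adjusted p = 3.71e-07). CD74, the invariant chain that chaperones class II, had a value of 0.10 ± 0.04 in KG-1 (adjusted p = 0.055) and fell by 0.62 in Mv4;11. In Mv4;11 10 of 13 class II genes were lower and none higher, with a median of -0.73 (-0.63 without replicate 3 of the 12 h PMR vehicle, with the same counts). In KG-1 2 of 12 tested were higher and 2 lower, with a median of 0.03. The line difference was called for 10 of 13, also without replicate 3 of the 12 h PMR vehicle of Mv4;11.

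**Figure D5:**
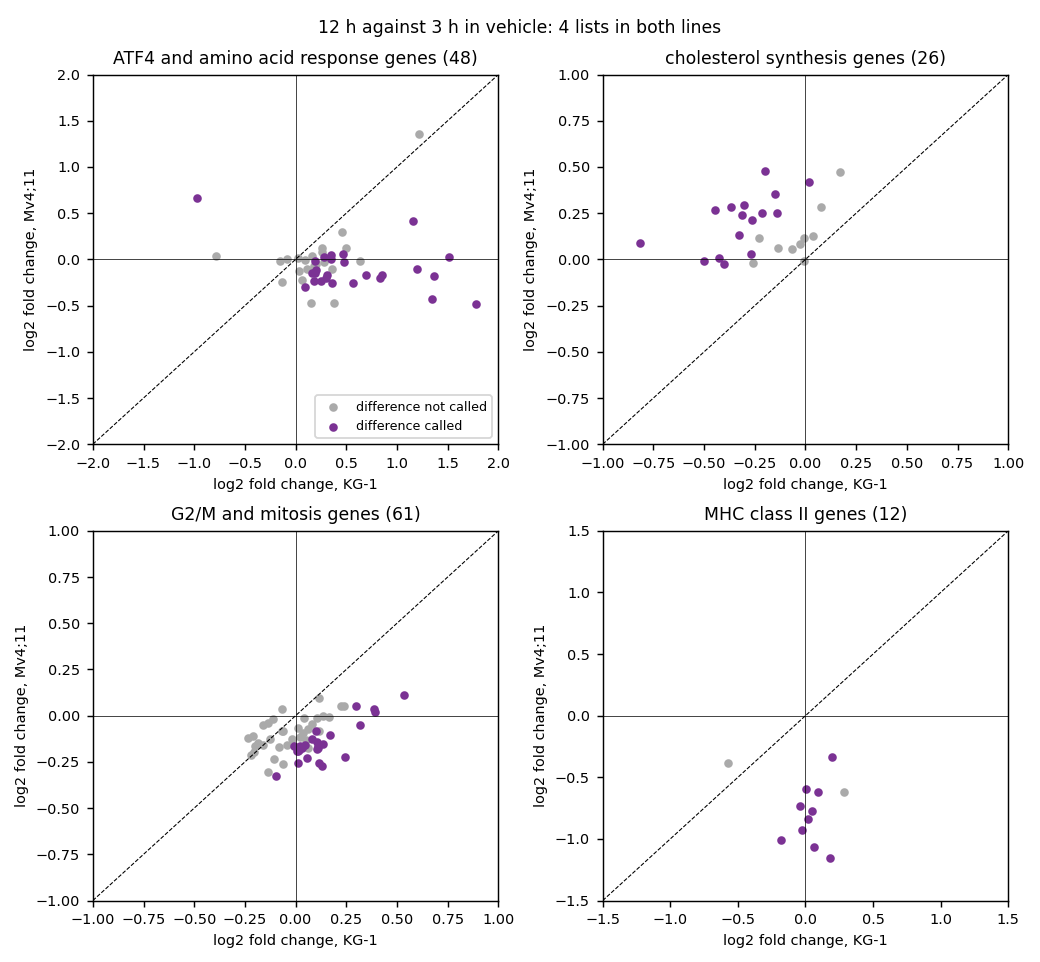
Log2 fold change (12 h against 3 h, vehicle only) in KG-1 (horizontal) and Mv4;11 (vertical) for the members of 4 gene lists tested in both lines, with their number in brackets; purple points were called for a difference between the lines and the dashed line marks equality. Axis ranges differ between panels. The ATF4 list spreads to the right at Mv4;11 values near 0, the cholesterol list lies to the upper left, and the MHC class II list lies below 0 in Mv4;11 near 0 in KG-1.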

How the data were processed

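Messenger RNA of 16 KG-1 vehicle libraries (8 at 3 h, 8 at 12 h) and, for comparison, 12 Mv4;11 vehicle libraries was analysed. The authors deposited estimated counts per gene symbol, with 1 table per line. Per the submitters' processing notes, Salmon 1.5.2, DESeq2 and GRCh38.p13 were used, without their roles. Which annotation and strand setting the counting used is not stated in the labels. Another 24 columns matched no sample and were not used.

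Estimated counts were rounded and analysed with edgeR 4.0.16 (limma 3.58.1, R 4.3.3). Low genes were removed by filterByExpr (count 10, total 15), and 17237 of 59081 symbols remained, library sizes were scaled by TMM, and the quasi-likelihood test used time with the vehicle set as a covariate. Tests were 2-sided and p-values were adjusted by Benjamini-Hochberg over all tested genes, with a gene called under 0.05. CPM are scaled to TMM library sizes, ± gives the standard error of a log2 fold change, computed from its F statistic. Line and set differences were interaction terms in joint fits. The fit was tested on simulated data. Alternatives were DESeq2 1.42.0, library totals, no filter, all 32 KG-1 libraries, no set covariate, a test against a 1.2-fold change, the replicate block, and each library left out.

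The comparison and the gene lists were chosen with earlier results of these data known. Named genes were the 15 largest rises and falls among protein-coding genes (RefSeq) that were called, reached 5 CPM and did not overlap between times, up to 4 called rises and falls of each list, members needed for a description, and the 6 largest line differences each way, and a few of them are not reported here. The lowest chi-square per degree of freedom between 2 libraries of a group was 8.21, so none is a copy of another.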

Additional observations from a re-analysis of the deposited data

Results flagged for a closer look

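Among 222 groups of 8 libraries of the named genes, 8 had a library far from the others, and chance alone gives about 1 in 20. The highest 3 h library was replicate 1 of the CX set for HMGCS1 (209 CPM, next 184), SCD (813 CPM, next 758) and UTP3 (29.5 CPM, next 24.7), and replicate 3 of the PMR set for SERPINH1 (48.2 CPM, next 44.9). At 12 h, replicate 2 of the CX set was highest for SRSF5 (173 CPM, next 150) and SHMT2 (316 CPM, next 296), replicate 1 of the PMR set was highest for ZNF35 (5.01 CPM, next 3.86), and replicate 1 of the CX set was lowest for AARD (2.54 CPM, next 4.76).

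For 72 named genes the time effect differed between KG-1 and Mv4;11 in the test of the difference itself (edgeR, adjusted p under 0.05), and the values below are the KG-1 effect minus the Mv4;11 effect on the log2 scale. Line and batch cannot be told apart.

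Among amino acid genes the difference was positive for ASS1 1.92, STC2 2.32, PHGDH 1.49, ASNS 1.54, CTH 0.75, WARS1 1.03, PCK2 1.04, PSAT1 0.84, SHMT2 0.35, MTHFD2 0.48, SARS1 0.51, AARS1 0.41, IARS1 0.22, TRIB3 0.63 and DDIT3 0.88. For the transcription factor gene ATF5 it was -1.63. Hypoxia and glucose genes gave INSIG2 0.95, SLC2A1 0.51, VEGFA 0.42, HK2 0.61, YPEL3 0.58, IRS2 0.48, TXNIP 0.61 and HIF1A -0.41. The named lipid synthesis genes with a called difference were more negative in KG-1, with HMGCS1 -0.90, NSDHL -0.48, DHCR7 -0.71, FASN -0.32 and SCD -0.41. Of all 17 fatty acid synthesis genes tested for the difference, 4 were called more negative and 1 more positive. Chaperone and iron genes gave HSPA5 -0.60, CALR -0.36, HSPE1 -0.69, HSP90AA1 -0.63, HSPD1 -0.44 and TFRC -0.33. Ribosome genes gave UTP3 -0.38, GRWD1 -0.43, NOP10 -0.44, POLR2L -0.42, RPP14 -0.52, NOP53 0.45, RPL13 0.28, RPL3 0.20 and GAS5 0.53. In cell cycle and respiration the values were HMMR 0.43, TOP2A 0.38 and ATP5MC1 -0.48. Genes of blood cell identity and antigen presentation gave HLA-DRA 1.13, CD74 0.72, CSF3R 0.40, LMO2 0.38, SPN -0.60, CEBPA -0.54 and CXCR3 -0.72. Others among the genes with the largest KG-1 changes gave SPNS3 1.07, UNC5C 0.52, SNAI3 -1.17, SRSF5 -0.63, LANCL2 -0.34, ZNF35 -0.78, RBM12 -0.48, NT5DC2 -0.54 and MYORG -0.64. The remaining genes were among the largest line differences, and none of them was called in KG-1 alone: GCNT2 -2.54, DPP10 -2.29, SFT2D3 -1.98 and TBC1D30 -1.80 were more negative in KG-1, and TBC1D3C 4.68, SPOCK1 2.67, NMUR1 2.31, SLC8A1 2.23 and ADPRH 2.16 more positive. DPP10 and TBC1D3C did not pass the Mv4;11 filter on low counts, and SPOCK1, NMUR1, SLC8A1 and ADPRH did not pass the KG-1 filter, so the counts behind these values are low in that line. Levels were low for others too. Mean CPM at 3 h and 12 h in Mv4;11 were 0.128 and 0.433 for GCNT2, 0.926 and 3.92 for SFT2D3, and 0.652 and 0.484 for STC2. In KG-1 they were 0.264 and 0.31 for TBC1D30.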

How the results depend on the processing

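The 6258 calls became 672 (446 higher, 226 lower) in a test against a 1.2-fold change, since most changes were small, and ran from 5533 to 7162 under the other settings: 6558 with DESeq2, 5891 with all 32 KG-1 libraries, 6455 with library totals, 5533 with no filter and 6264 with no set covariate. Leaving out 1 library gave 5621 to 6402 calls, and leaving out the 4 libraries numbered 1, an alternative chosen after seeing the data, 5851. With library totals 57.8% of the calls were higher, against 48.7% with TMM.

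The CX set gave 1840 to 3863 calls and the PMR set 2597 to 3890 over single libraries left out. The set difference gave 1 call with DESeq2 and 0 to 1 over libraries left out (1 without replicate 4 of the 3 h PMR vehicle), and PMR against CX vehicle gave 1 with DESeq2. Mv4;11 gave 1575 to 2233 calls, the fewest without replicate 3 of its 12 h CX vehicle, and the line difference 1892 to 2678.

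ATF4, never called, changed sign without replicate 2 of the 12 h CX vehicle (-0.001), replicate 1 of the 3 h CX vehicle (-0.010), replicate 1 of the 3 h PMR vehicle (-0.020), or all libraries numbered 1 (-0.056), and ran from -0.020 to 0.051 over single libraries left out. Of 103 called named genes, 101 kept their call under every alternative other than the 1.2-fold test, which 61 passed. The exceptions were XBP1 and MT-RNR1. Many of the 103 genes were named for a large called effect in these data, so their share does not describe all called genes. The cause of these changes was not tested.

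The replicate numbers do not pair the samples by any label, and only 9 of 24 same-numbered pairs of libraries from different groups deviated together with a correlation over 0.1 (median 0.0915, against -0.0362 for other numbers). In 14 of 16 libraries the best match had the same number, a hint from the data and not from the design. With the replicate block 7162 genes were called in KG-1, 4598 in the CX set, 4977 in the PMR set, 2705 in Mv4;11, 3160 for the line difference and 0 for the set difference.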
